A study of Mus musculus with 12 samples.

Results

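Interferon-induced genes and the genes of MHC class I were followed across the frontal cortex of mice with knockdown of Grin1, mice with knockdown and adult Cre rescue, and wild-type mice. The list holds 9 genes, namely Irf7, Ifit1, Ifit3, Isg15, Ifitm3, Ifi27, B2m, H2-K1 and H2-D1, and each gene model whose symbols include one of them was taken. Of the 9 genes, 8 were found in this way among the 23076 distinct symbols in the authors' tables, and Ifi27 was not found under that symbol. Where knockdown was set against wild type they gave 10 gene models, of which Cuffdiff tested 9. Rescue against knockdown had 9, of which 8 were tested, and rescue against wild type had 9, all of them tested. None of the 8 genes passed the study's threshold in any of the 3 comparisons.

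Type I interferons bind a receptor pair that activates the kinases Jak1 and Tyk2. These switch on transcription factors, Stat2 and Irf9 among them, that bind the interferon-stimulated response element in the promoters of antiviral genes such as Ifit1 and Isg15, and Irf7 amplifies the response by driving further interferon genes. MHC class I molecules, which pair a heavy chain such as H2-K1 or H2-D1 with B2m, present peptides to CD8 T cells and are raised by interferons. In the brain, microglia and endothelial cells carry much of this expression, and class I molecules on neurons have been studied for roles at synapses.

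The 12 animals were males aged 14 weeks, F1 hybrids of C57Bl/6 and 129/SvlmJ, with 4 in each group. The groups are GluN1 (called knockdown here), GluN1Cre (rescue) and WT (wild type), and all of them received tamoxifen from 10 weeks of age, with 6 mg given by gavage and about 14 mg taken up with the chow. The labels name neither the allele that lowers Grin1 nor the promoter that drives Cre. By the group names only the rescue group carries Cre, so an effect of Cre and one of restored Grin1 cannot be told apart. Grin1 encodes the subunit that NMDA-type glutamate receptors require. Its model fell to 56.7 FPKM in knockdown, against 138 FPKM in wild type, a log2 fold of -1.28 (q = 0.00456 in the authors' deposited table). It stood at 86.7 FPKM in rescue, against 65.7 FPKM in knockdown, a log2 fold of 0.40 (q = 0.038 in the authors' deposited table). Rescue remained below wild type, with 78.0 FPKM against 138 FPKM, a log2 fold of -0.82 (q = 0.0098 in the authors' deposited table).

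FPKM counts fragments relative to transcript length and library size, so levels of different genes can be compared. The authors' tables give 1 value per group over its 4 animals, so there is no spread between animals and the depth of each library is unknown. The error of a log2 fold is therefore given as the 95% interval that the fold and its deposited p imply under a normal model. A model was called when p was under 0.05 and q under 0.10, the threshold of the study's design text. In bulk tissue, fewer cells of a type and less RNA per cell cannot be told apart.

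Markers of cortical neurons summed to 2014 FPKM in knockdown and 2132 FPKM in wild type, with 2 of 8 models higher and 6 lower in knockdown. Cuffdiff called 1 of the 8, Gad1, which went against the sum, with 151 FPKM in knockdown and 120 FPKM in wild type. At an unadjusted p under 0.05, 2 models were lower in knockdown. Markers of the olfactory bulb, which is not named in the labels, also differed: 8 of 8 were called higher in knockdown than in wild type (135 against 54.7 FPKM summed) and 6 of 7 higher in rescue than in wild type (83.5 against 55.0 FPKM). Of the markers of striatal medium spiny neurons, 5 of 6 were called lower in knockdown than in wild type and 6 of 6 lower in rescue than in wild type. In rescue against knockdown 8 of 8 olfactory bulb markers were called lower (83.8 against 134 FPKM), and of the striatal markers Cuffdiff called 0 of 6, with 2 at an unadjusted p under 0.05. Microglial markers, which stand for the main immune cell of the brain, had 0 of 14 called by Cuffdiff in each comparison and 0 at an unadjusted p under 0.05 in knockdown against wild type. Their sum was 329 FPKM in knockdown against 326 FPKM in wild type, and 318 FPKM in rescue against 323 FPKM in knockdown. Of the markers of T and B cells, Cd3d, Cd3e, Cd3g, Cd8a, Cd8b1 and Ms4a1 were listed below 0.04 FPKM in every group and Cd79a at 0.0751 to 0.0996 FPKM. Cd4 was called lower than in wild type, at 0.201 FPKM in knockdown against 0.388 FPKM in wild type (q = 0.0562 in the authors' deposited table) and at 0.180 FPKM in rescue against 0.387 FPKM in wild type (q = 0.0256 in the authors' deposited table).

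The 8 genes covered a wide range of levels, and their order hardly depended on the group. B2m, the light chain shared by all class I molecules, was the most abundant with 56.1 FPKM in knockdown, 53.1 FPKM in rescue and 54.5 FPKM in wild type. H2-D1 followed at 12.9 FPKM in knockdown, 12.3 FPKM in rescue and 12.8 FPKM in wild type. Next came Ifitm3 (9.30 to 11.4 FPKM over groups and tables), H2-K1 (8.33 to 9.37 FPKM), Ifit3 (3.95 to 4.65 FPKM) and the main Isg15 model (1.68 to 1.98 FPKM). Ifit1 and Irf7 stood below or about 1 FPKM in every group and changed places from table to table: in knockdown Ifit1 had 0.632 and Irf7 0.616 FPKM in the table with wild type, but 0.629 and 0.662 FPKM in the table with rescue. With 1 value per group, whether neighbours in this order differ beyond the spread between animals cannot be said.

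**Figure D1:**
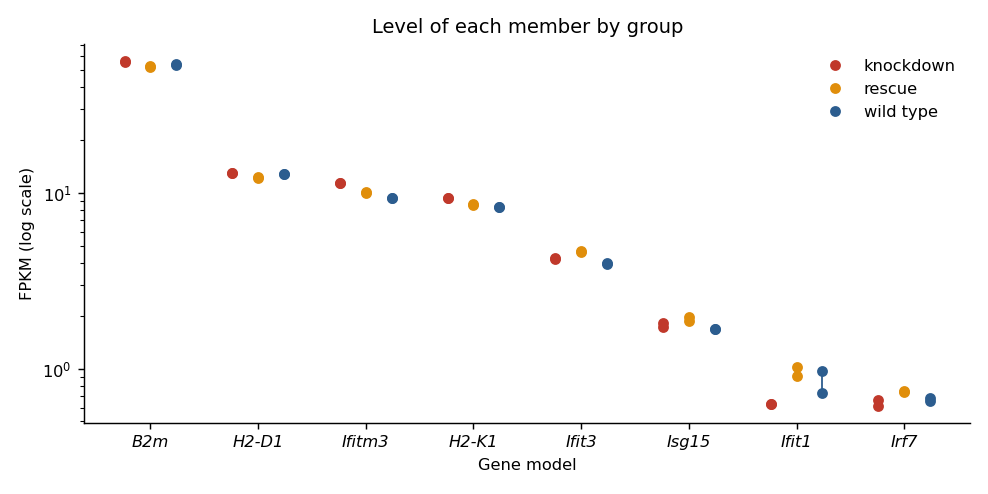
FPKM (log axis) of the 8 genes in knockdown, rescue and wild-type cortex. Each point is the authors' value of a group in 1 table, and a line joins a group's values from 2 tables. B2m lies highest in all groups, Ifit1 and Irf7 lowest, and wild-type Ifit1 has values of 0.726 and 0.965 FPKM.

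The short stretches of promoter below are shown because they hold the letters by which interferon-responsive genes are commonly recognised, next to the genes whose levels are reported. The sequences come from RefSeq promoters of build GRCm38.p6, 250 bases before to 50 after each annotated start, and 8 of the 9 listed genes had an entry, with 2 entries for H2-K1. For the interferon-stimulated response element the letters GAAA, any 2 bases and GAAA again were searched on both strands. They occur in 1131 of 32851 promoters (3.44%). In the lines below, capitals mark each match, and overlapping matches run together. All lie upstream of the annotated start except those of Ifitm3, which begin 2 bases after it.
Ifit1, chr19:34640770-34640828, plus strand: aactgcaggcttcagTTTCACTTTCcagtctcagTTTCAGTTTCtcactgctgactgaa
Ifit3, chr19:34583358-34583431, plus strand: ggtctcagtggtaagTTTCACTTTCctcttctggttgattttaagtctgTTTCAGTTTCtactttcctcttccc
Isg15, chr4:156200860-156200911, minus strand: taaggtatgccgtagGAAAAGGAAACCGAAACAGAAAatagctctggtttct
Ifitm3, chr7:141010716-141010757, minus strand: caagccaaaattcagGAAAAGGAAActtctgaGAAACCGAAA
B2m, chr2:122147533-122147572, plus strand: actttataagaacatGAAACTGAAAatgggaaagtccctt

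Isg15 had 3 overlapping matches, Ifit1, Ifit3 and Ifitm3 had 2 each and B2m had 1. The windows of Irf7, H2-K1 and H2-D1 held none of these letters, which says only that they are not in these windows. For Irf7 the last 25 bases of the promoter entry matched no transcript in either orientation, unlike those of H2-K1 and H2-D1. The Irf7 window may thus not sit at the start of a transcript. Ifit1 and Ifit3 carry the same 2 elements, TTTCACTTTC and TTTCAGTTTC, in the same order. A match is a description of the sequence and not a measured binding site.

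For the class I heavy chains the letters of a kappaB element, GGGATTCCC on both strands, were searched instead, because a kappaB site in the upstream enhancer is a known feature of these genes. They occur in 116 of 32851 promoters (0.353%), with 1 match each for H2-K1 and H2-D1, in capitals below. The windows differ in 1 of 29 letters. The window of H2-D1 lies upstream of the RefSeq start but inside the gene's longer span in GENCODE.
H2-K1, chr17:34000439-34000467, minus strand: cccagggctgGGGATTCCCcatctccaca
H2-D1, chr17:35262914-35262942, plus strand: cccagggctgGGGATTCCCcatctcctca

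Irf7, the transcription factor that amplifies the interferon response, was among the lowest of the 8 genes. GENCODE M21 (GRCm38) places this protein-coding gene (ENSMUSG00000025498) on chromosome 7 from 141262706 to 141266481 on the minus strand. It had 0.616 FPKM in knockdown, against 0.651 FPKM in wild type. In the other tables it had 0.744 FPKM in rescue, against 0.662 FPKM in knockdown, and 0.737 FPKM in rescue, against 0.677 FPKM in wild type. Rescue was thus the highest group for Irf7 in both of its tables, by less than the error of the fold.

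Ifit1 and Ifit3 encode proteins with tetratricopeptide repeats that bind viral RNA or the complexes formed on it. They are neighbours on chromosome 19: Ifit1 (ENSMUSG00000034459) runs from 34640871 to 34650009 and Ifit3 (ENSMUSG00000074896) from 34583531 to 34588731, both on the plus strand. Ifit1 had 0.632 FPKM in knockdown, against 0.726 FPKM in wild type, and 0.908 FPKM in rescue, against 0.629 FPKM in knockdown. The table of rescue against wild type gave it 1.03 FPKM in rescue, against 0.965 FPKM in wild type. Knockdown was therefore the lowest group for Ifit1 in both of its tables.

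The Ifit3 model also carries the symbol I830012O16Rik, which RefSeq lists as Ifit3b, a near copy that lies beside it. Their transcripts are 98.0% identical over 1697 aligned bases, and 869 of the 1696 stretches of 50 bases in Ifit3 occur unchanged in Ifit3b. The promoter windows of the pair are identical over all 74 bases. The value of the model is therefore that of both genes together, and reads of the copies cannot be separated here. It was 4.25 FPKM in knockdown, against 4.00 FPKM in wild type. It was 4.65 FPKM in rescue, against 4.22 FPKM in knockdown, and 4.62 FPKM in rescue, against 3.95 FPKM in wild type. In contrast, Ifit1 and Ifit3 share 0 of 2607 such stretches, so no stretch of that length matches both.

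Isg15 encodes a ubiquitin-like protein that is attached to other proteins after interferon treatment. The gene (ENSMUSG00000035692) lies on chromosome 4 from 156199424 to 156200818 on the minus strand. Its main model had 1.72 FPKM in knockdown, against 1.69 FPKM in wild type. It had 1.98 FPKM in rescue, against 1.82 FPKM in knockdown, and 1.86 FPKM in rescue, against 1.68 FPKM in wild type. The tables that include wild type hold a second tested model under this symbol at the same locus, with 0.685 FPKM in knockdown against 0.5999 FPKM in wild type and 0.649 FPKM in rescue against 0.596 FPKM in wild type. Within each model the groups lay close together, with rescue above its comparison group each time.

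Ifitm3 encodes a membrane protein that blocks the fusion of viruses with endosomes. The gene (ENSMUSG00000025492) spans positions 141009586 to 141010770 of chromosome 7 on the minus strand. It had 11.3 FPKM in knockdown, against 9.30 FPKM in wild type. It had 10.1 FPKM in rescue, against 11.4 FPKM in knockdown, and 10.04 FPKM in rescue, against 9.33 FPKM in wild type. Rescue lay between knockdown and wild type.

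Ifi27 encodes a small hydrophobic protein induced by interferon. No model carries its symbol, but RefSeq gives Ifi27l1 as a synonym, and the model named Ifi27l1 has the same span as RefSeq's Ifi27, chromosome 12 from 103434189 to 103440245. That model had 20.5 FPKM in knockdown, against 21.2 FPKM in wild type, 20.4 FPKM in rescue, against 20.5 FPKM in knockdown, and 20.3 FPKM in rescue, against 21.2 FPKM in wild type. It was not called in any table, with log2 folds of -0.04, -0.01 and -0.07 in that order and a smallest p of 0.546 in the authors' deposited table. It is not counted among the 8 genes.

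B2m (ENSMUSG00000060802) lies on chromosome 2 from 122147686 to 122153083 on the plus strand. It had 56.1 FPKM in knockdown, against 54.5 FPKM in wild type, 53.1 FPKM in rescue, against 56.3 FPKM in knockdown, and 52.2 FPKM in rescue, against 53.7 FPKM in wild type. B2m was the most closely held of the 8 genes together with H2-D1, their largest differences between groups being 0.0839 and 0.0817 on the log2 scale.

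H2-K1 and H2-D1 are the classical class I heavy chains and lie on chromosome 17. H2-K1 (ENSMUSG00000061232) runs from 33996017 to 34000347 on the minus strand and H2-D1 (ENSMUSG00000073411) from 35262730 to 35267499 on the plus strand. Their transcripts are 90.7% identical over 1472 aligned bases, and 109 of the 1570 stretches of 50 bases in H2-K1 occur in H2-D1, so some reads could have been counted for either. The H2-D1 model also carries the symbol H2-L. H2-K1 had 9.31 FPKM in knockdown, against 8.33 FPKM in wild type. It had 8.64 FPKM in rescue, against 9.37 FPKM in knockdown, and 8.55 FPKM in rescue, against 8.37 FPKM in wild type. Knockdown was thus the highest group for H2-K1. H2-D1 had 12.9 FPKM in knockdown, against 12.8 FPKM in wild type. It had 12.3 FPKM in rescue, against 13.0 FPKM in knockdown, and 12.2 FPKM in rescue, against 12.9 FPKM in wild type, so rescue was its lowest group. A second H2-K1 model, present in the tables that include knockdown, was too low to be tested, with at most 0.205 FPKM.

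Knockdown against wild type asks whether low Grin1 goes with a different level of these genes. Ifitm3 had the largest difference, 1.22 times as high in knockdown as in wild type, and H2-K1 was 1.12 times as high, but neither passed the threshold. Cuffdiff called 0 of the 9 tested models and 2.52% of all 18417 tested models. At an unadjusted p under 0.05 the count was 0 of 9, beside 7.91% of all. In so few models a count of 0 cannot be told apart from these shares. The folds were positive for 7 models and negative for 2, with a median log2 fold of 0.04 beside -0.00331 over all tested models.

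The log2 fold of Ifitm3 was 0.29 (95% interval -0.02 to 0.59, p = 0.0657 and q = 0.717 in the authors' deposited table). That of H2-K1 was 0.16 (interval -0.08 to 0.40, p = 0.194 in the authors' deposited table). The other folds lay closer to 0 or had wide intervals. B2m was at 0.04 (-0.13 to 0.21) and H2-D1 at 0.01 (-0.18 to 0.21), so for these abundant genes the interval leaves out differences above about 1.16-fold in either direction. Ifit3 was at 0.09 (-0.20 to 0.38), Irf7 at -0.08 (-0.55 to 0.39) and Ifit1 at -0.20 (-0.82 to 0.41). The models of Isg15 were at 0.03 (-0.57 to 0.62) and 0.19 (-0.65 to 1.03). The intervals of Ifit1 and Isg15 thus reach past differences of 1.5-fold, which could not be detected at this precision. The upper end of the Ifitm3 interval lies at 1.51-fold.

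Some markers of vascular cells, meningeal cells, astrocytes and blood were called in the same comparison. Among all models at 1 FPKM or more, Cuffdiff called 2.67%, and 7.61% had an unadjusted p under 0.05. At that unadjusted p there were 5 of 12 endothelial, 8 of 11 meningeal and 2 of 6 astrocyte markers. The shares called were 0.806% in rescue against knockdown and 0.969% in rescue against wild type. Of the endothelial markers, 12 of 12 were higher in knockdown and 1 was called, Ly6a, a surface antigen that interferon can also induce, with 21.3 FPKM in knockdown against 16.4 FPKM in wild type (q = 0.0489 in the authors' deposited table). The endothelial sum was 206 FPKM in knockdown and 179 FPKM in wild type. Of the markers of meningeal fibroblasts, 11 of 11 were higher in knockdown and 4 were called, with sums of 97.0 FPKM in knockdown and 76.3 FPKM in wild type. Of the astrocyte markers, 6 of 6 were higher in knockdown and 2 were called, Gfap with 54.0 FPKM in knockdown against 34.6 FPKM in wild type and Aqp4 with 28.8 FPKM in knockdown against 23.5 FPKM in wild type. Their sums were 640.0 FPKM in knockdown and 593 FPKM in wild type. Of the blood markers, 4 of 4 were higher in knockdown and 1 was called (112 against 97.1 FPKM summed). The markers of leukocytes other than microglia summed to 10.6 FPKM in knockdown and 8.98 FPKM in wild type. Of those at 1 FPKM or more, 3 of 3 were higher in knockdown, 0 were called and 1 had an unadjusted p under 0.05. The part of these cell types in the values of Ifitm3 and H2-K1 was not tested.

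Rescue against knockdown asks what differs when Grin1 is partly restored in the adult. Ifit1 was 1.44 times as high in rescue as in knockdown, the widest difference of any tested model of the 8 genes in any comparison, and it did not pass the threshold. Cuffdiff called 0 of the 8 tested models, beside 0.689% of all 18430. At an unadjusted p under 0.05 it was 0 of 8, beside 4.19% of all. The folds were positive for 4 and negative for 4, with a median of 0.02 beside -0.0056 over all tested models.

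All of these folds lay within their error. The log2 fold of Ifit1 was 0.53 (interval -0.02 to 1.07, p = 0.0568 in the authors' deposited table), that of Irf7 0.17 (-0.27 to 0.61), that of Ifit3 0.14 (-0.13 to 0.40) and that of Isg15 0.12 (-0.32 to 0.57). Ifitm3 was at -0.17 (-0.45 to 0.11), H2-K1 at -0.12 (-0.35 to 0.11), B2m at -0.08 (-0.25 to 0.09) and H2-D1 at -0.08 (-0.27 to 0.11). Beside these, 3 of 4 blood markers were called higher in rescue than in knockdown (162 against 112 FPKM summed). The markers of leukocytes other than microglia summed to 12.6 FPKM in rescue against 10.7 FPKM in knockdown, with 0 of 3 called by Cuffdiff and 1 at an unadjusted p under 0.05. Other markers were lower in rescue than in knockdown. Of the astrocyte markers 6 of 6 were lower and 1, Gfap, was called (595 against 651 FPKM summed). Of the endothelial markers 9 of 12 were lower and 1, Slc2a1, was called (192 against 207 FPKM). Of the meningeal markers 8 of 11 were lower, with 0 called by Cuffdiff and 3 at an unadjusted p under 0.05 (87.9 against 97.3 FPKM). The part of these cell types in the values of Ifit1, Ifitm3 and the class I genes was not tested.

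Rescue against wild type asks what still differs when Grin1 is partly restored. Ifit3 had the largest difference, with a log2 fold of 0.23 (interval -0.06 to 0.52, p = 0.122 in the authors' deposited table), and it did not pass the threshold. Cuffdiff called 0 of the 9 tested models, beside 0.841% of all 18429. At an unadjusted p under 0.05 it was 0 of 9, beside 4.32% of all. The folds were positive for 7 and negative for 2, B2m and H2-D1, with a median of 0.11 beside -0.0080 over all tested models. The folds of Isg15 were 0.15 (-0.49 to 0.78) for the main model and 0.12 for the second, that of Irf7 0.12 (-0.34 to 0.59), that of Ifitm3 0.11 (-0.21 to 0.42) and that of Ifit1 0.09 (-0.50 to 0.68). H2-K1 was at 0.03 (-0.19 to 0.26), B2m at -0.04 (-0.22 to 0.13) and H2-D1 at -0.08 (-0.28 to 0.12). The 3 comparisons share their groups, so their folds are not independent of each other.

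In rescue against wild type, too, markers of other cells differed. Of the blood markers 3 of 4 were called higher in rescue (160.3 against 97.1 FPKM summed). The other leukocyte markers summed to 12.6 FPKM in rescue and 8.92 FPKM in wild type, with 0 of 3 called by Cuffdiff at 1 FPKM or more and 2 at an unadjusted p under 0.05. These were S100a8, with 2.45 FPKM in rescue against 0.838 FPKM in wild type, and S100a9, with 2.46 FPKM in rescue against 1.23 FPKM in wild type, which neutrophils express. Of the astrocyte markers 1 of 6, Gfap, was called higher (41.9 against 34.6 FPKM), but the 6 were split, with 3 higher and 3 lower. The astrocyte sum was 587 FPKM in rescue and 594 FPKM in wild type. Endothelial and meningeal markers had 0 of 11 and 0 of 10 called by Cuffdiff, with 2 and 3 at an unadjusted p under 0.05. Of these markers 10 of 11 and 10 of 10 were higher in rescue (190 against 178 and 84.3 against 74.0 FPKM summed). Their part in the value of Ifit3 was not tested.

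**Figure D2:**
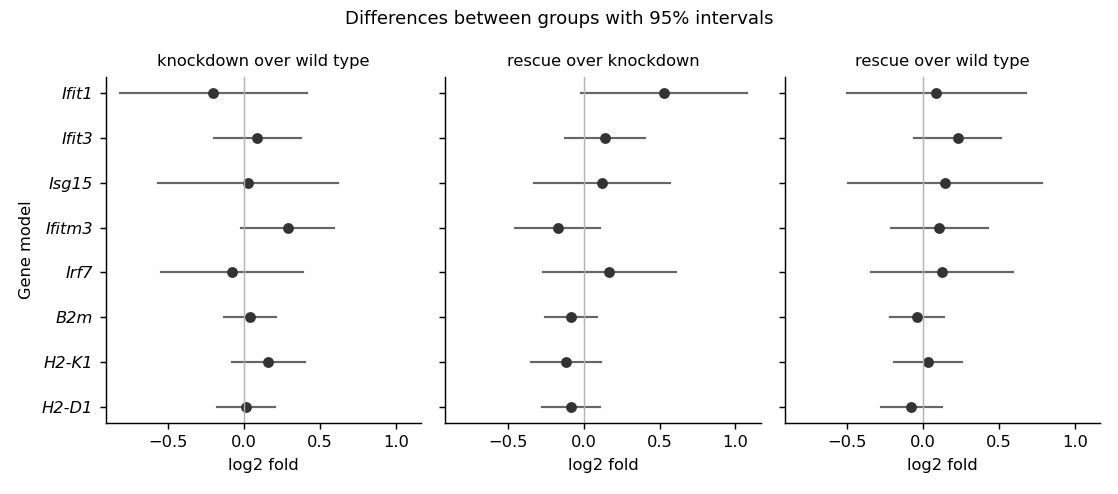
Log2 fold of each gene in the 3 comparisons (points) with the 95% interval implied by the fold and its deposited p (bars); the main model is shown for Isg15 and H2-K1. All intervals include 0, and those of Ifit1, Irf7 and Isg15 are the widest.

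Each group appears in 2 tables, which were assembled and normalised separately, and this gives a measure of how far a value moves with no change of animals. Ifit1 in wild type was 0.726 FPKM in the table with knockdown and 0.965 FPKM in the table with rescue, a ratio of 1.33. Only 2.70% of 12873 models matched by symbol moved as far, and the median movement was 0.02 on the log2 scale. Ifit1 in rescue also moved, to 0.908 FPKM in 1 table against 1.03 FPKM in the other, while its knockdown values, 0.632 and 0.629 FPKM, hardly did. The movement of wild-type Ifit1, 0.41 on the log2 scale, was close in size to its widest difference between groups, 0.53.

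If tables were free of such movement, the folds of knockdown over wild type and of rescue over knockdown would add up to that of rescue over wild type. For Ifit1 they missed by 0.24 on the log2 scale and for Irf7 by -0.04, while the other 6 genes missed by at most 0.0135 in either direction. For each of the 8 genes the largest fold between groups exceeded what moved between tables, although all folds remained within the error of the test. Smaller folds did not always exceed it. Ifit1 moved by 0.41, beside folds of -0.20 in knockdown against wild type and 0.09 in rescue against wild type. In knockdown against wild type the folds of Irf7 (-0.08) and the main Isg15 model (0.03) were also smaller in size than their movement. The movement comes from the same animals, so it holds nothing on the spread between animals. Irf7 and the main Isg15 model moved by up to 0.10 and 0.09 between tables, beside widest differences between groups of 0.17 and 0.15.

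**Figure D3:**
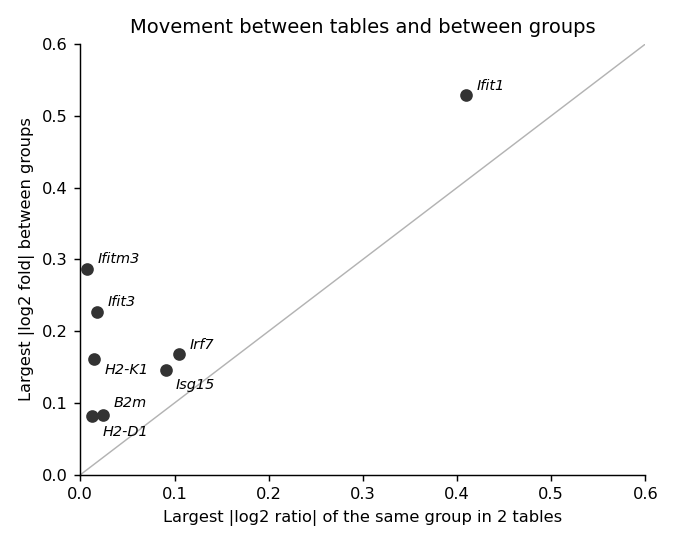
Largest absolute log2 ratio of a group's own values in 2 tables (x axis) against the largest absolute log2 fold between groups (y axis) for the 8 genes, with the line of equality. Ifit1 lies far to the right at 0.41 and 0.53, and Ifitm3 lies at 0.29 on the y axis with a movement near 0.

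To see what size of difference was called at these levels, all models within 2-fold of a gene's mean FPKM were examined. Near B2m, 57 of 2342 models were called in knockdown against wild type, and the smallest called difference was 0.24 on the log2 scale. Near Ifitm3, 123 of 5620 models were called, with a smallest difference of 0.25 and a median of 0.39, so its fold of 0.29 was in the range where some models of like level were called. Near Ifit1, 92 of 4040 models were called, with a smallest difference of 0.36 and a median of 0.82. In rescue against knockdown, 17 of 3857 models near Ifit1 were called, with a smallest difference of 0.38 and a median of 0.91. Differences of the size seen for B2m and H2-D1 were thus below any called at their level. The fold of Ifitm3 in knockdown against wild type and that of Ifit1 in rescue against knockdown were not.

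The wider pathway was followed with 7 lists of 187 genes, of which 175 were found in the tables. The lists include the 9 genes followed above, so the counts by list hold their models again. Cuffdiff called 0 of 87, 0 of 88 and 0 of 87 listed models that averaged 1 FPKM or more in knockdown against wild type, rescue against knockdown and rescue against wild type. Among all such models it called 2.67%, 0.806% and 0.969%. At an unadjusted p under 0.05 the counts were 6, 0 and 1, beside 7.61%, 3.74% and 4.22% of all such models, and the 6 are 6.90% of their 87. In the same comparison 52 folds were positive and 35 negative, with a median of 0.04 beside -0.01 over all models. In rescue against wild type 55 were positive and 32 negative, also with a median of 0.04, and in rescue against knockdown 41 were positive and 47 negative, with a median of -0.01. Over all models at 1 FPKM or more, 46.8% of folds were positive in knockdown against wild type. The share was 44.2% in rescue against wild type and 47.5% in rescue against knockdown.

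The interferons themselves were next to undetected. Of 11 listed ligands 9 had a model, Cuffdiff tested 0 of them, and the highest values were 0.0309 FPKM for Ifne in rescue, 0.0190 FPKM for Ifna2 in rescue and 0.0149 FPKM for Ifng in wild type. Ifnk reached 0.0102 FPKM in knockdown, and Ifnb1 was listed at 0 in knockdown and wild type. No order of groups can be read from values this low.

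The most abundant receptors and signalling proteins were at moderate levels, and in knockdown against wild type Cuffdiff called 0 of 21 models, with 1 at an unadjusted p under 0.05. Ifnar1, a chain of the type I interferon receptor, had 8.11 FPKM in knockdown and 8.18 FPKM in wild type, and Ifnar2, the other chain, had 7.96 FPKM in knockdown and 8.36 FPKM in wild type. The kinases Jak1 and Jak2 had 33.9 and 11.1 FPKM in knockdown, against 34.6 and 11.3 FPKM in wild type. The transcription factor Stat2 had 5.96 FPKM in knockdown against 5.89 FPKM in wild type. Irf9, whose model also covers Rnf31, had 7.81 FPKM in knockdown against 8.52 FPKM in wild type. Ifngr2, of the interferon gamma receptor, had 19.2 FPKM in knockdown against 21.1 FPKM in wild type, and Pias1, an inhibitor of cytokine signalling, had 11.96 FPKM in knockdown against 12.7 FPKM in wild type. Of the 21 models in this list, 8 had positive and 13 negative folds, with a median of -0.02.

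Among antiviral effectors the most abundant were Adar, an RNA-editing enzyme, Trafd1, an inhibitor of innate signalling, Ifi27l1 and Lgals3bp, a secreted glycoprotein. Adar had 32.0 FPKM in knockdown against 31.0 FPKM in wild type. The main model of Trafd1 had 22.8 FPKM in knockdown against 22.97 FPKM in wild type, and Lgals3bp, joined with Cant1, had 20.6 FPKM in knockdown against 20.1 FPKM in wild type. The list as a whole had 16 positive and 9 negative folds in knockdown against wild type (median 0.04), 12 and 13 in rescue against knockdown (-0.01), and 18 and 7 in rescue against wild type (0.06).

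Sensors and their adaptors showed the same lack of calls. Tbk1, the kinase that activates Irf3, had 18.1 FPKM in knockdown against 18.8 FPKM in wild type. Tlr3, a receptor for double-stranded RNA, had 2.90 FPKM in knockdown against 2.72 FPKM in wild type, and the adaptor Myd88 had 3.23 FPKM in knockdown against 2.65 FPKM in wild type. The median of the list was 0.15 over 7 models in knockdown against wild type and -0.09 over 8 models in rescue against knockdown. Ikbke, a kinase related to Tbk1, was joined with Srgap2 in the tables of the rescue group, so its level there is not that of the gene alone.

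In the class I lists Cuffdiff called 0 of 11 heavy chains and relatives in knockdown against wild type, with 1 at an unadjusted p under 0.05, and 0 of 12 genes of antigen processing and loading, with 2. The folds were positive for 8 and negative for 3 in the first list (median 0.09) and positive for 9 and negative for 3 in the second (median 0.13), while 46.8% of all models at 1 FPKM or more had a positive fold. The chaperones Calr and Canx had 175 and 102 FPKM in knockdown, against 154 and 95.4 FPKM in wild type, and Pdia3, a disulphide isomerase of the loading complex, had 75.7 FPKM in knockdown, against 67.6 FPKM in wild type. These chaperones serve many other proteins of the endoplasmic reticulum as well. Fcgrt, a relative of class I that binds immunoglobulin G and albumin, had 9.40 FPKM in knockdown, against 7.80 FPKM in wild type. In rescue against knockdown both lists were evenly split, 6 positive and 6 negative each, with medians of -0.00 and -0.01, and in rescue against wild type they had 7 positive and 4 negative, and 8 positive and 4 negative folds, both with a median of 0.09.

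Class II genes, which microglia and other antigen-presenting cells express, were low and even. Cd74, the invariant chain, had 5.45 FPKM in knockdown against 5.51 FPKM in wild type, H2-Aa had 2.77 FPKM in knockdown against 2.76 FPKM in wild type, and H2-DMa had 6.14 FPKM in knockdown against 6.76 FPKM in wild type. Irgm1, a GTPase induced by interferon gamma, had 2.75 FPKM in knockdown against 2.58 FPKM in wild type. The list's medians were 0.00, -0.01 and 0.01 in knockdown against wild type, rescue against knockdown and rescue against wild type.

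**Figure D4:**
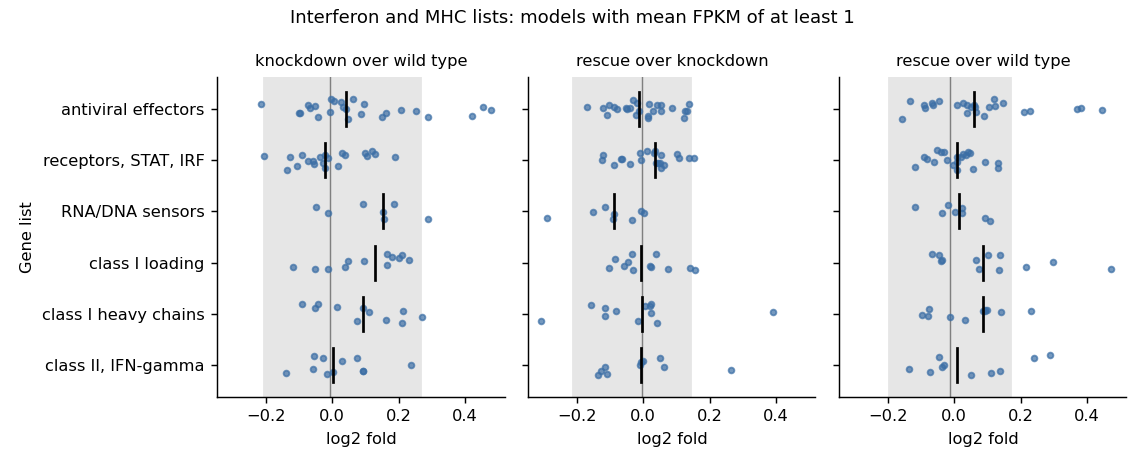
Log2 fold of each listed model averaging 1 FPKM or more in the 3 comparisons, by list, with the list's median (black bar). The grey line marks the median and the grey band the range from the fifth to the 95th percentile of all tested models at 1 FPKM or more; most listed models lie inside the band.

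The listed models at 1 FPKM or more with an unadjusted p under 0.05, named here after their values were seen, were all higher in the first-named group. In knockdown against wild type they were Bst2, Trim25, Stat3, Fcgrt, Calr and Pdia3. Bst2, which tethers budding virus, had 2.74 FPKM in knockdown against 2.005 FPKM in wild type (p = 0.0436 and q = 0.588 in the authors' deposited table), and Stat3 had 11.5 FPKM in knockdown against 10.1 FPKM in wild type (p = 0.0279 in the authors' deposited table). In rescue against wild type the 1 model was Ifitm1, a neighbour and relative of Ifitm3, with 3.56 FPKM in rescue against 2.61 FPKM in wild type (p = 0.0476 and q = 0.9999 in the authors' deposited table). In knockdown Ifitm1 had 3.49 FPKM, against 2.61 FPKM in wild type, so both of these values lay above wild type, without a call. With models below 1 FPKM included, the count was 9 of 122 tested models in knockdown against wild type. It was 1 of 125 in rescue against knockdown and 2 of 125 in rescue against wild type. Among all tested models, 7.91%, 4.19% and 4.32% had such a p, in that order. The counted models were again all higher in the first-named group, and none was called. The added models in knockdown against wild type were H2-K2, a class I gene, with 0.768 against 0.435 FPKM (p = 0.00805 and q = 0.224 in the authors' deposited table), Slfn2, with 0.853 against 0.568 FPKM, and Mx2, with 0.549 against 0.393 FPKM. Gbp4, a GTPase induced by interferon gamma, had 0.314 FPKM in rescue against 0.204 FPKM in knockdown (p = 0.0043 and q = 0.381 in the authors' deposited table). H2-M5, a class I relative, had 0.779 FPKM in rescue against 0.548 FPKM in wild type (p = 0.0398 in the authors' deposited table). In knockdown against wild type both genes were joined with others, so their levels there are not those of the genes alone. The model that holds Gbp4 with Gbp6, Gbp9 and Gbp11 had 1.003 FPKM in knockdown. The model that holds H2-M5 with 2410137M14Rik had 1.92 FPKM in wild type.

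The genes of the lists whose folds lay nearest to the median folds of the 8 genes, by Euclidean distance over the 3 comparisons among 75 ranked genes, were Ifi35 (distance 0.04), Tapbpl (0.04), H2-Q4 (0.04), Adar (0.04) and Irgm1 (0.07). Their folds were small in each comparison. H2-Q4, a non-classical class I gene, had log2 folds of 0.07 in knockdown against wild type, 0.02 in rescue against knockdown and 0.09 in rescue against wild type.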

How the data were processed

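Polyadenylated RNA of frontal cortex from 12 mice was sequenced. Tools named in the submitters' processing notes are TopHat and TopHat2 2.1.0, Cuffdiff 2.2.1.3, Cufflinks 2.2.1.0 and FastQC 0.65, and GRCm38 and mm10 are the builds named there. The authors deposited 3 Cuffdiff tables, which per the file headers give each assembled gene model 1 FPKM per group, with a p-value, a q-value and a test score, all from the authors' Cuffdiff runs. Depth per library is unknown. Log2 folds were recomputed from the deposited FPKM in all tables, since 1 table had passed through a spreadsheet. Recomputing the Benjamini-Hochberg adjustment over all tested models gave the deposited q-values to within 5.14e-07.

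Calls used the deposited p (under 0.05) and q (under 0.10) of tested models; list counts use models averaging 1 FPKM or more. Tests stay within a table. The 95% interval is the log2 fold plus or minus the normal error that its deposited two-sided p implies. This step was tested on data simulated under the same normal model, which cannot show whether the deposited p follow that model. Levels of the same group in 2 tables were matched by symbol. Identities came from local alignment of GENCODE M21 transcripts in Biopython 1.88; other steps used Python 3.11.15, pandas 2.3.3 and scipy 1.17.1.

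The genes and lists were chosen with earlier results of these data known. Besides the listed genes and Grin1, the genes named were the 4 of each pathway list with the highest mean FPKM, Ifnar1, Ifnar2, Stat2 and Irf9, any called model and the 5 nearest in fold; others were picked with their values in view. A gene under this rule is not reported here. Alternatives changed the threshold, adjustment, centring, pseudocount, FPKM filter and the use of merged models.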

Additional observations from a re-analysis of the deposited data

How the results depend on the processing

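No listed gene was called under any alternative run: a q under 0.05, an unadjusted p under 0.05, p recomputed from the deposited statistic, adjustment over models averaging 1 FPKM or more, centring on the median fold, or models with a single symbol only. The pathway lists, with 0 models called by Cuffdiff, gave 6 models in knockdown against wild type and 1 in rescue against wild type at an unadjusted p under 0.05; a looser threshold is the whole of that change. With no FPKM filter 0 listed models were called. Centring shifts all folds by at most 0.0117. The median log2 fold of the genes stayed positive under each alternative in both comparisons with wild type. In rescue against knockdown it was 0.02, but -0.0032 with a pseudocount of 1 and -0.01 with the Ifi27l1 model counted as Ifi27, an alternative added after seeing the data, so that median has no firm sign. Counting Ifi27l1 changed no call.

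No paired analysis was possible because the tables hold 1 value per group and no values per animal, and for the same reason leaving out each animal was not run. The number of animals, the unknown depth and the low levels of Ifit1, Irf7 and Isg15 limit the precision. Ifit1 values also moved between tables.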
